A study of Mus musculus with 8 samples.

Results

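Cytosine methylation was compared between lung metastases and primary tumors of the 4T1 model, using the 3 lung metastases marked MFP and the 2 primary tumors marked MFP, 5 of the 8 samples in the series. These members were taken by their labels alone, and every one of the 136069 deposited positions (sites) was used. 4T1 is an established line of mouse mammary carcinoma cells known for lung metastasis, and the labels give the strain BALB/c, the 4T1 line and either the mammary tumor or the lung metastases as the tissue source for each sample. MFP and TVI are used here as the labels write them; the other 3 samples are lung metastases marked TVI, and no primary tumor is marked TVI. No treatment other than bisulfite conversion of the DNA, no age and no genotype is given for either group. All samples derive from 1 cell line, and no label ties a sample to an animal. The p-values therefore reflect only how far these samples scatter, and part of that scatter may be technical. How much host tissue each sample held could not be checked, because none of the 24 marker genes set aside for lung epithelium, endothelium, leukocytes, fibroblasts and mammary epithelium had a start that could be matched to the sites.

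In mammals most CpG dinucleotides carry a methyl group, whereas dense CpG clusters at many gene starts do not. Partly methylated stretches in a bulk sample hold a mixture of methylated and unmethylated DNA molecules, so a shift in their level is a shift in the share of methylated molecules. Gain of methylation at a gene start often accompanies low expression, but methylation within gene bodies has no fixed relation to expression, and expression was not analysed here. In a bulk sample, a change in the cells present and a change of methylation within a cell type cannot be told apart.

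The sequences of 4 gene starts are shown first, because they hold the largest rises found in the 300 bases around a called start and, for contrast, the start next to the region with the largest rise. Each is the RefSeq sequence of GRCm38.p6 from 250 bases before to 50 bases after the start, 5′ to 3′ along the gene, with the CpGs that carry a deposited site in capitals. The windows, in deposited positions, were chr2:91790457-91790756 on the minus strand for Dgkz, chr11:106128898-106129197 on the minus strand for Smarcd2, chr2:32477029-32477328 on the plus strand for Ak1 and chr7:149620506-149620805 on the plus strand for Syt8.

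Dgkz: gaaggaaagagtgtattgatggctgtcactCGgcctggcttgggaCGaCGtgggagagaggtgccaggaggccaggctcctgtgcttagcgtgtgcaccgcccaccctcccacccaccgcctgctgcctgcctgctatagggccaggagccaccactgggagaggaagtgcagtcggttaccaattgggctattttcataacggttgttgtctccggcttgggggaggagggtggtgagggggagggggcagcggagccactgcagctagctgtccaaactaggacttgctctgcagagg
Smarcd2: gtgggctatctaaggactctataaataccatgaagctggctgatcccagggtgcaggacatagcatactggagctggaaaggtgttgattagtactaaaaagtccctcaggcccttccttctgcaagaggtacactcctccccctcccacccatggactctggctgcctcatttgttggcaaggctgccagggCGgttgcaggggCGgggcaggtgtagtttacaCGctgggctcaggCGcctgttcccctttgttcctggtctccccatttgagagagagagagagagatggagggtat
Ak1: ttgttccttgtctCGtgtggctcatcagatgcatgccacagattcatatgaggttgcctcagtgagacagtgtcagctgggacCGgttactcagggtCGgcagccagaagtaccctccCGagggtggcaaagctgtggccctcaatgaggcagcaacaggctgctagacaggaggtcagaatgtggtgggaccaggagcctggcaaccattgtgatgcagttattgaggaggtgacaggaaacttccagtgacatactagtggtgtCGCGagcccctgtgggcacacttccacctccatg
Syt8: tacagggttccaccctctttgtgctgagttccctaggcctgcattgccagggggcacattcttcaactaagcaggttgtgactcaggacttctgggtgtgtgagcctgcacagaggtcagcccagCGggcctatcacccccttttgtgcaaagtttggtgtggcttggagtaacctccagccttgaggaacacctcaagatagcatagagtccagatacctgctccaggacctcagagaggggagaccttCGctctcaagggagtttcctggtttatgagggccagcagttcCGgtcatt

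In the Dgkz window, the 3 CpGs with a site lay at bases 31, 46 and 49 of the sequence, upstream of the start, and the other CpGs of its 10 carried none. Dgkz encodes diacylglycerol kinase zeta, which converts diacylglycerol to phosphatidic acid. Mean methylation of the 3 CpGs was 2.02% and 3.14% in the tumors and 22.2%, 22.4% and 32.3% in the metastases. The tumors were nearly unmethylated there and every metastasis stood far above both. The CpG at base 31 went from a tumor mean of 1.96% to a metastasis mean of 28.1%, the CpG at base 46 from 1.82% to 25.9% and the CpG at base 49 from 3.96% to 22.9%. In the fit restricted to these 300-base windows the rise of 23.0 points did not pass (limma, adjusted p = 0.109).

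In Smarcd2, a subunit of the SWI/SNF chromatin remodelling complex, all 4 CpGs carried a site and each had a higher mean in the metastases. Their mean was 61.5% and 57.6% in the tumors and 70.1%, 71.1% and 72.0% in the metastases. In Ak1, adenylate kinase 1, which interconverts adenine nucleotides, all 6 CpGs carried a site. The widest gap lay at base 119, with 45.5% and 31.0% in the tumors against 57.1%, 56.7% and 64.4% in the metastases. The window mean was 68.3% and 59.8% in the tumors and 70.5%, 73.5% and 74.9% in the metastases. The groups did not overlap in either window, but the tumors of the Ak1 window differed from each other by more than the nearest tumor and metastasis did. Neither window passed in the fit of 300-base windows (limma, adjusted p = 0.163 for Smarcd2 and 0.224 for Ak1). The 3 CpGs of the start of Syt8, a synaptotagmin of the membrane-trafficking family, had tumor means of 1.69%, 1.85% and 3.46% and metastasis means of 1.73%, 2.49% and 2.93%.

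**Figure D1:**
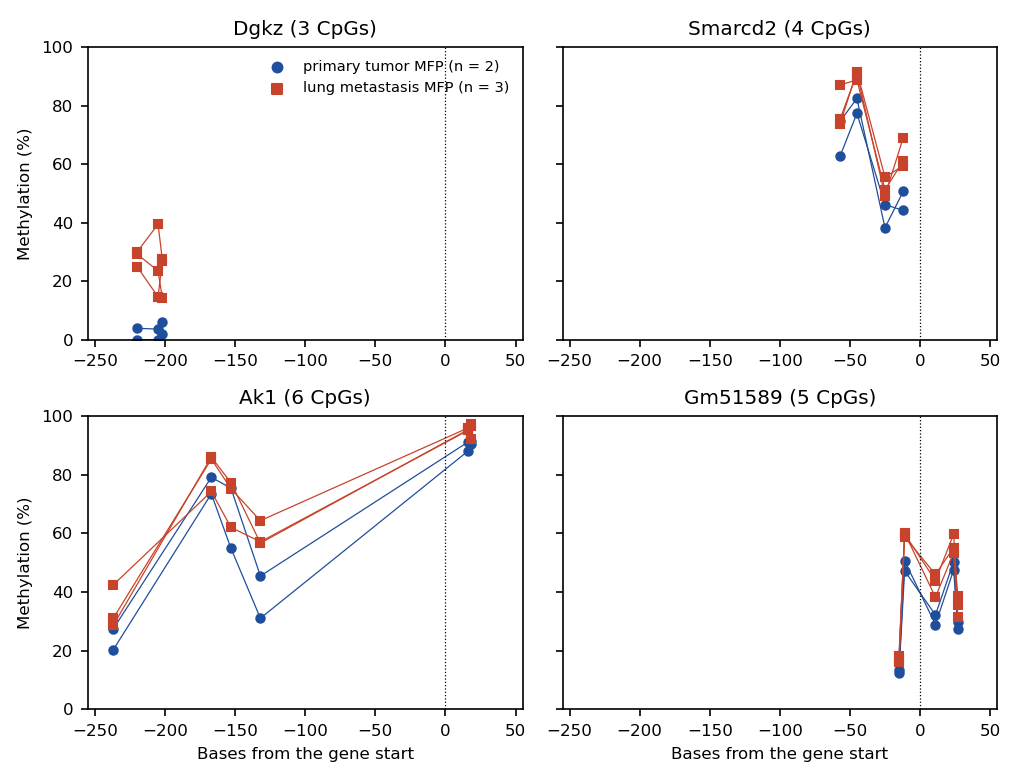
Methylation (%) of each CpG with a deposited site, by its distance in bases from the gene start, for the Dgkz, Smarcd2, Ak1 and Gm51589 starts; circles are the 2 primary tumors and squares the 3 MFP lung metastases, each line 1 sample. The Dgkz CpGs lay at or under 6.06% in both tumors and between 14.3% and 39.5% in the metastases.

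Levels over all sites differed little between the groups. Mean methylation was 66.9% and 66.6% in the tumors and 67.4%, 67.4% and 67.5% in the metastases, a difference of 0.731 points. Sites from 20% to 80% made up 16.1% and 16.7% of all sites in the tumors and 15.6%, 15.6% and 15.5% in the metastases. Sites over 80% made up 61.1% and 60.4% in the tumors and 61.8%, 61.8% and 61.9% in the metastases. In each of these measures the groups did not overlap, and the metastases had fewer partly methylated and more highly methylated sites. The two-sided exact permutation p was 0.2 for each, the smallest that the 10 splits of 5 samples allow, so the design cannot pass 0.05, and the p adjusted over the 5 measures tested was 0.2. The median of sites was 90.2% and 89.8% in the tumors against 90.7%, 90.9% and 91.0% in the metastases. Of the 22164 sites with a tumor mean from 20% to 80%, 2410 had a metastasis mean of 80% or more and 467 one under 20%. Of the 31101 sites with a tumor mean under 20%, 918 had a metastasis mean from 20% to 80%. Of the 82804 sites with a tumor mean of 80% or more, 904 had a metastasis mean from 20% to 80%. No site moved from under 20% to 80% or more or back.

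Neighbouring sites at most 500 bp apart were joined into 3083 regions of at least 3 sites, and a region was called where limma gave an adjusted p under 0.05 over all regions. The metastases were higher in 152 regions and lower in 10, 5.25% of the regions tested (4.93% higher and 0.324% lower). The called rises ranged from 1.26 to 14.3 points with a median of 3.65, and 38 of them exceeded 5 points. The called falls ranged from 1.85 to 4.85 points. Over all regions the median difference was 0.526 points, 76.5% of regions had a higher mean in the metastases, and in 36.8% of regions every metastasis exceeded both tumors, while every one was below both in 4.87%. Other scalings changed the split of calls: centring each sample on its mean gave 63 higher and 21 lower, with a median region difference of -0.205, and quantile normalization gave 49 higher and 23 lower, with a median of -0.0855. The count of called regions also depended on single samples. It was 59 without metastasis 3, 87 without metastasis 2 and 99 without metastasis 1. Without TVI metastasis 3 it was 87, without TVI metastasis 2 it was 125 and without TVI metastasis 1 it rose to 171.

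Most regions were close between the groups. The difference was under 1 point in 63.0% of regions and under 5 points in 98.4%. Within the metastases, the median absolute difference between a pair of samples over regions was 0.517 to 0.629 points, and it was 0.665 between the tumors. Between a tumor and a metastasis it was 0.787 to 0.954 points. Calls were most frequent among partly methylated regions. From 20% to 80% methylation, 94 of 1272 regions were called higher and 5 lower (7.78%). At 80% or more, 52 of 1491 were higher and 3 lower (3.69%), and under 20%, 6 of 320 were higher and 2 lower (2.50%). Whether these shares differ was not tested. The share called was 4.95% for regions of 3 to 9 sites, 4.68% for 10 to 29, 5.62% for 30 to 59 and 5.79% for 60 or more. By chromosome it ran from 0 of 15 regions on chromosome 13 and 0 of 5 on X to 9 of 75 on chromosome 4 and 4 of 16 on chromosome 18, with 28 of 344 on chromosome 2.

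**Figure D2:**
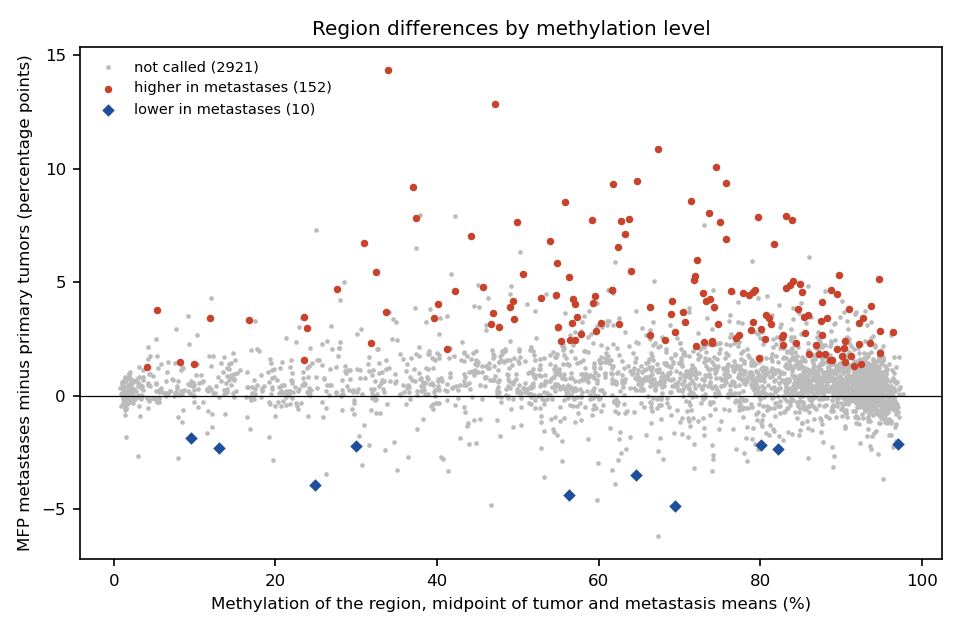
Difference of the 3083 regions (MFP metastases minus primary tumors, percentage points) against their methylation level (%); red circles are the 152 regions called higher, blue diamonds the 10 called lower and grey points the others. The largest called rises, up to 14.3 points, lay at partly methylated levels, and the falls reached 4.85 points.

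The region with the largest rise was chr7:149618262-149618577, 2179 bp before the Syt8 start shown above. It was methylated at 26.3% and 27.3% in the tumors and at 42.5%, 38.3% and 42.7% in the metastases, a rise of 14.3 points (SE 2.93, limma adjusted p = 0.0372). All of its 10 sites had a higher mean, and the call held in 7 of 18 alternatives. The Syt8 start was matched by only 3 CpGs and was accepted only beside another matched start. Averaged from 1000 bp before to 500 bp after, this start was at 2.07% in the tumors and 1.84% in the metastases. The region thus rose beside a start that was nearly unmethylated in both groups. The mean of the TVI metastases in the same region was 82.9%.

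A locus of 46.8 kb on chromosome 2, chr2:173061974-173108754, held the most called regions of any locus. Of its 12 regions, 11 were called higher. The nearest matched starts were Nfatc2 at 4646 kb on one side and Stx16 at 794 kb on the other. Only 355 genes had a matched start, so other genes may lie nearer or within the locus. Averaged over its sites in regions it was at 36.3% and 36.2% in the tumors and 40.8%, 41.2% and 41.3% in the metastases. Its region chr2:173082053-173088739, with 70 sites, was at 32.4% and 32.3% in the tumors and 41.5%, 41.3% and 41.9% in the metastases, a rise of 9.21 points (SE 0.406, limma adjusted p = 0.000108). The neighbouring region chr2:173089288-173101210, with 222 sites, was nearly unmethylated, at 3.32% and 3.52% in the tumors and 6.74%, 7.49% and 7.40% in the metastases (rise 3.79, limma adjusted p = 0.00176). Low, middle and high regions of the locus thus all stood higher, but the locus was picked for its called regions. The site test called 14 of its single sites higher, beside 0.0427% of all sites tested. These sites count towards the same region means, so they add no separate evidence.

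On chromosome 15, all 4 regions of chr15:85362309-85393320 were called higher, with the nearest matched starts, Gm16059 and Tubgcp6, 6105 kb and 3560 kb away. Genes without a matched start may lie nearer or within it. The locus was at 62.3% and 61.7% in the tumors and 67.2%, 66.3% and 66.4% in the metastases. Its region chr15:85388224-85389961 was at 70.4% and 68.7% in the tumors and 80.7%, 78.6% and 79.5% in the metastases, a rise of 10.1 points (SE 0.830, limma adjusted p = 0.00176). At chr15:77631380-77663241, 4 of 5 regions were called higher, and the locus went from 54.2% and 53.1% to 57.9%, 58.5% and 58.5%. In both loci every metastasis stood above both tumors, which picking loci by their called rises favors.

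**Figure D3:**
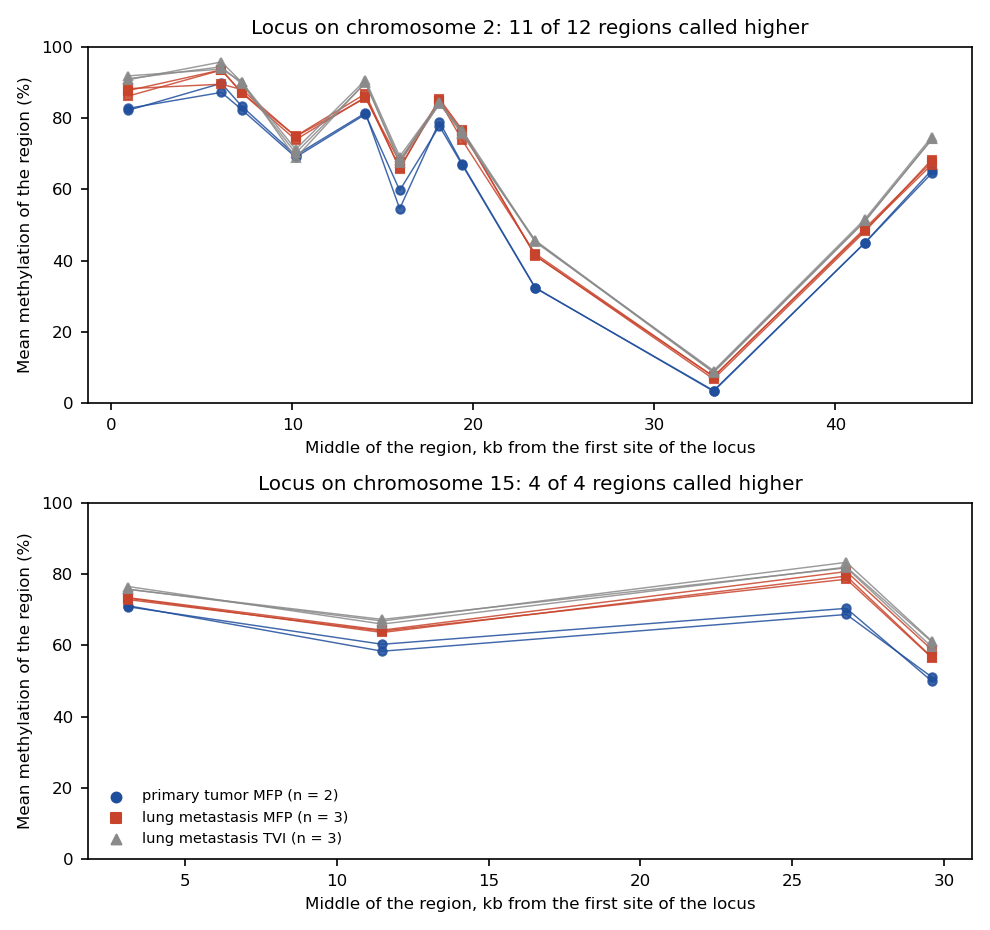
Mean methylation (%) of each region along the chromosome 2 locus (12 regions, 11 called higher) and the chromosome 15 locus (4 regions, 4 called higher), by distance in kb from the first site; circles are primary tumors, squares MFP and triangles TVI lung metastases, each line 1 sample. In the chromosome 15 locus the metastases lay above both tumors in every region, as they did in all 152 called rises.

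Called regions at most 100000 bp apart were counted as 1 locus, and 10 of the 108 loci held at least 3, together 47 of the 162 calls. Of 25 regions at chr5:125512659-125666225, 8 were called higher, with rises from 2.50 to 7.68 points. At chr17:27176979-27245615, which held the Itpr3os start, 5 of 18 were called higher. At chr2:27588401-27631958, 3 of 11 were called higher. Its nearest matched starts Notch1 and Spaca9 lay 1229 kb and 923 kb away, but genes without a matched start may lie nearer. Among the called regions was chr2:27590556-27591172, at 40.4% and 41.1% in the tumors and 56.3%, 51.4% and 53.1% in the metastases (rise 12.9, limma adjusted p = 0.0106). The 8 regions of this locus that were not called differed by -0.0880 to 1.66 points. At chr8:120018585-120102184, which held the Plcg2 start, 3 of 24 were called higher, and at chr10:76572202-76630873, which held the Col18a1 start, 3 of 11. Both of the remaining loci mixed directions, with 2 regions higher and 1 lower of 7 at chr2:157252960-157302560 and of 17 at chr9:20902308-20987921, a stretch with the starts of Pde4a, Cdc37 and Tyk2.

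**Figure D4:**
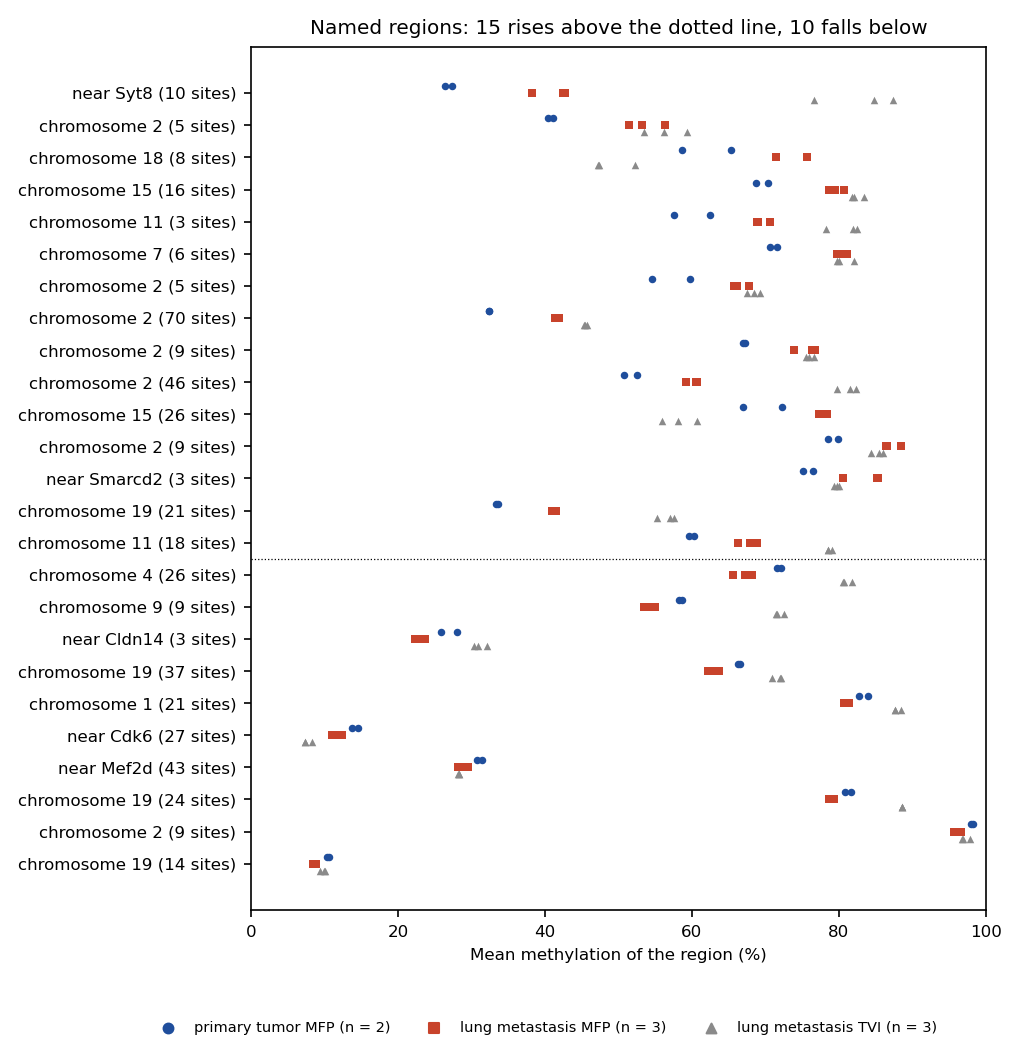
Mean methylation (%) of the 15 called regions with the largest rises and all 10 called falls, each symbol 1 sample (circles primary tumors, squares MFP metastases, triangles TVI metastases). By the rule of selection, the squares of each row lie on 1 side of both circles. In some rows the TVI metastases lie elsewhere, as at 82.9% near Syt8.

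Of the 162 called regions, 38 lay within 5 kb of a gene start matched by sequence, 35 of them higher and 3 lower, and 15 of them held the start. Regions within 5 kb of a matched start were called in 5.82% of 653 cases and the others in 5.10% of 2430. The regions described here were picked after their values were seen, so their genes stand for no theme. A region 3709 bp after the start of Jup, which encodes the junction protein plakoglobin, was at 52.3% and 51.6% in the tumors and 57.9%, 57.0% and 58.5% in the metastases (rise 5.84, limma adjusted p = 0.00374). A region 4763 bp after the start of Cldn4, a claudin of epithelial tight junctions, was at 70.1% and 68.5% against 74.0%, 74.0% and 75.3% (rise 5.10, limma adjusted p = 0.0124). A region 780 bp before the start of Ezr, encoding ezrin, which ties the membrane to actin, was at 42.2% and 44.3% against 47.6%, 48.97% and 47.5% (rise 4.78, limma adjusted p = 0.0166). These regions were partly methylated in both groups. The group ranges did not overlap, as in all 152 called rises, so this follows from picking called regions. Over all regions, every metastasis exceeded both tumors in 36.8%. The call held in 17 of 17 alternatives for Jup, 16 of 18 for Cldn4 and 12 of 18 for Ezr. By contrast, the Cldn4 start itself was at 2.01% in the tumors and 2.07% in the metastases.

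A region 3692 bp after the start of Rara, the retinoic acid receptor alpha, was at 67.8% and 66.4% in the tumors and 71.0%, 71.0% and 70.2% in the metastases (rise 3.61, limma adjusted p = 0.0141). The region holding the start of Jag1, a Notch ligand, was at 3.50% and 3.44% in the tumors and 4.63%, 4.68% and 4.88% in the metastases, the smallest called rise (1.26 points, limma adjusted p = 0.0341), and with the median of its sites in place of the mean it was -0.140. The region holding the start of Nfkbia, an inhibitor of NF-kappaB, was at 40.4% and 40.01% against 42.4%, 41.8% and 42.6% (rise 2.06, limma adjusted p = 0.0429). At the starts themselves, averaged from 1000 bp before to 500 bp after, methylation was lower and not called: Jag1 was at 1.39% in the tumors and 1.54% in the metastases, and Nfkbia at 11.4% and 11.9%. A region 1591 bp after the start of Adcy7, an adenylate cyclase, was at 29.9% and 29.5% against 35.7%, 34.8% and 34.9% (rise 5.44, limma adjusted p = 0.0148). A region 947 bp after the start of Bax, which promotes apoptosis, was already at 92.9% and 92.0% in the tumors and reached 95.4%, 94.1% and 94.9% (rise 2.33, limma adjusted p = 0.0442). The call held in 14 of 18 alternatives for Adcy7, 11 of 17 for Rara, 5 of 17 for Jag1, 5 of 17 for Nfkbia and 5 of 19 for Bax.

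Each of the called regions that held a matched start of Col18a1, a collagen gene of basement membranes, rose. The first, chr10:76628067-76630873, was at 26.2% and 24.4% in the tumors and 31.7%, 30.004% and 28.4% in the metastases (rise 4.69, limma adjusted p = 0.0478). The other, chr10:76572202-76577984, was at 71.8% and 71.9% against 74.6%, 74.1% and 73.9% (rise 2.35, limma adjusted p = 0.0419). The first kept its call in 5 of 18 alternatives and the other in 6 of 18, where its lowest value was 0.592 with an adjusted p of 0.831 (limma, median of sites). The region holding the Cbarp start, whose product regulates voltage-gated calcium channels, showed the largest rise among regions that held a start, from 71.5% and 70.9% to 78.4%, 78.5% and 79.7% (7.66 points, limma adjusted p = 0.00258), and it was called in 17 of 17 alternatives.

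The 10 called falls were small and lay at low, middle and high levels. The largest, chr4:3703109-3706045, was at 71.6% and 72.1% in the tumors and 65.6%, 68.1% and 67.3% in the metastases, and it fell by 4.85 points (SE 0.783, limma adjusted p = 0.0161). The region chr9:20902308-20903126 was at 58.3% and 58.7% against 53.9%, 53.4% and 54.97%, and it fell by 4.37 points (limma adjusted p = 0.00973). Each of 3 falls lay within 5 kb of a matched start. For Cldn14, another claudin, a region of 3 sites 1754 bp before the start was at 28.0% and 25.8% in the tumors and 23.6%, 23.0% and 22.4% in the metastases, and it fell by 3.93 points (limma adjusted p = 0.0351). For Cdk6, a cyclin-dependent kinase of the G1 phase, a region 539 bp after the start was at 13.8% and 14.5% against 10.99%, 12.3% and 12.2%, and it fell by 2.33 points (limma adjusted p = 0.0478). For Mef2d, a MADS-box transcription factor, a region 732 bp after the start was at 31.4% and 30.8% against 28.9%, 29.6% and 28.2%, and it fell by 2.21 points (limma adjusted p = 0.0419). With the median of its sites in place of the mean, the Mef2d region was 1.28 points higher in the metastases. The call held in 12 of 17 alternatives for the chromosome 4 region, 13 of 16 for the chromosome 9 region, 7 of 16 for Cldn14, 5 of 17 for Cdk6 and 6 of 17 for Mef2d. The Cdk6 and Mef2d windows around the start were at 2.26% and 1.07% in the tumors and 2.43% and 1.19% in the metastases.

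The TVI metastases were compared with the same tumors, so some likeness of the differences is built in. Of the 152 called rises, 137 went the same way in the TVI metastases. Against the tumors, 130 of the rises were also called higher there and 8 were called lower (limma). Of the 10 falls, 4 went the same way, 2 were also called lower and 6 were called higher. Over all 3083 regions the median difference of the TVI metastases from the tumors was 1.34 points, so higher values were common there in general. The share of all regions called in the TVI metastases is not given here. These counts are therefore no result about the called regions. The regions given next are examples where the TVI metastases lay apart from the MFP metastases. At Ezr the TVI metastases averaged 62.3%, against 43.3% in the tumors and 48.0% in the MFP metastases. The Col18a1 regions lay on opposite sides, at 15.3% where the tumors averaged 25.3% and the MFP metastases 30.02%, and at 85.8% where these averaged 71.9% and 74.2%. At the chromosome 4 fall the TVI metastases were at 81.0%, above both the tumors at 71.8% and the MFP metastases at 67.0%.

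Around 355 matched gene starts, from 1000 bp before to 500 bp after, the metastases were higher at 11 and lower at 0, 3.10% of the starts tested with limma (50 passed an unadjusted p under 0.05, 2 of them lower). The median difference was 0.271 points, and 72.1% of starts had a higher mean in the metastases. Most starts were little methylated, 221 of them with a tumor mean under 20%. Centring each sample on its mean gave 8 higher and 19 lower starts, and quantile normalization gave 0 calls. The count was 0 without metastasis 3, 2 without metastasis 1, 3 without tumor 1, 4 without tumor 2 or metastasis 2, and 5 without TVI metastasis 3. The number of matched CpGs was 3 or 4 for 6 of the 11 called starts, which were accepted only beside another matched start. These were Dgkz, Smarcd2, Pygo2, Cdc42ep1, Gm15270 and Lrrc26.

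Dgkz had the largest rise among the called starts, with 16.8% and 17.2% in the tumors and 26.1%, 27.2% and 30.8% in the metastases (10.99 points, SE 2.42, limma adjusted p = 0.0493). Ak1 was at 77.1% and 72.0% against 81.7%, 81.6% and 82.7% (7.41 points, limma adjusted p = 0.0239). Smarcd2 was at 82.9% and 82.2% against 86.8%, 88.5% and 88.0% (5.18 points, limma adjusted p = 0.0151). Of these starts, all printed above, Dgkz was the one with a low level in both groups. Slc26a8, an anion transporter of the germ line, was at 16.3% and 19.6% against 22.9%, 21.7% and 22.5% (4.38 points, limma adjusted p = 0.0480). Pygo2, a nuclear component of WNT signalling, was at 32.7% and 31.4% against 35.1%, 36.4% and 36.3% (3.85 points, limma adjusted p = 0.0283). Cdc42ep1, an effector of the GTPase CDC42, was at 10.3% and 10.02% against 12.8%, 11.7% and 12.1% (2.05 points, limma adjusted p = 0.0283). The other 5 called starts, Lrrc26 and the gene models Gm16059, Gm52708, Gm51589 and Gm15270, rose by 2.90 to 5.65 points. Over the 300-base sequence alone, 4 of the 11 called starts had overlapping groups and differences under 1 point, namely Cdc42ep1 (0.610), Gm15270 (0.488), Lrrc26 (0.245) and Gm16059 (0.0812). For Gm16059 the fit of these windows took in 16 sites, 1 more than the 15 CpGs lying wholly in the sequence, and gave -0.146. The call at the wider window held in 10 of 15 alternatives for Smarcd2, 9 for Ak1, 6 for Pygo2, 5 for Dgkz, 5 for Cdc42ep1 and 3 for Slc26a8.

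**Figure D5:**
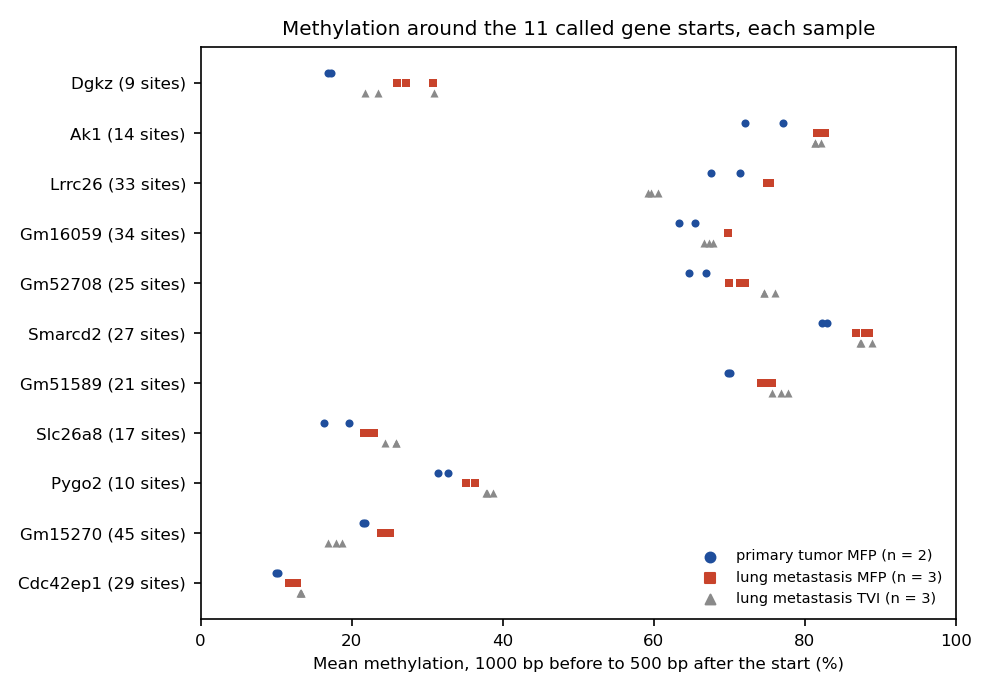
Mean methylation (%) from 1000 bp before to 500 bp after the 11 called gene starts, each symbol 1 sample (circles primary tumors, squares MFP metastases, triangles TVI metastases). At each start every square lies to the right of both circles, and picking called starts favors such a gap. Dgkz runs from 16.8% in a tumor to 30.8% in a metastasis.

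Of the 43 genes in the lists for TGF-beta and SMAD, WNT and frizzled, epithelial to mesenchymal transition, DNA methylation and imprinting, 1 had a matched start. Snai1, a transcription factor that represses E-cadherin, was at 25.7% and 24.4% in the tumors and 24.8%, 24.4% and 24.0% in the metastases (difference -0.665, limma adjusted p = 0.730). Its group ranges overlapped, and the start was not called. The other genes of these lists had no matched start, so they were not tested as genes. Sites were not placed in genes, so sites of these genes may be among the regions described here.

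At single sites, the metastases were higher at 58 and lower at 5 of 135914 tested, 0.0464% (0.0427% higher and 0.00368% lower; limma, adjusted p under 0.05 over all sites). The rises ranged from 10.7 to 37.0 points, and 36 of the 58 sites lay in a region called higher. Each site counts towards the mean of its own region, so this overlap is partly built in. Of all regions, 4.93% were called higher, but the share of all sites lying in them is not given here. How far the overlap exceeds that share was not tested. Of the 180 distinct sites that lay within 100 bp of one of these 58 and were not called themselves, 156 had a higher mean in the metastases, beside 57.1% of all sites. The largest rise among called sites, at chr2:173094583 in the chromosome 2 locus described above, went from 14.0% and 15.3% in the tumors to 46.1%, 50% and 58.8% in the metastases (37.0 points, SE 4.98, limma adjusted p = 0.0420). Over all sites, called or not, the differences ran from -31.4 to 39.4 points. At chr15:77635514 the tumors were at 43.6% and 40% and the metastases at 79.5%, 78.7% and 76.6% (36.5 points, limma adjusted p = 0.0398). The largest fall among called sites, at chr2:168345235, went from 43.3% and 48.1% to 22.7%, 21.95% and 18.9%, a change of -24.5 points (limma adjusted p = 0.0398). A pair of falls lay 124 bp apart on chromosome 19, at positions 46530257 and 46530381. At the first of these the tumors were at 19.6% and 22.9% and the metastases at 7.91%, 6.86% and 9%, and at the other the tumors were at 23.7% and 26.2% and the metastases at 9.09%, 3.03% and 7.96%. The number of called sites rested on single libraries: 0 passed without metastasis 1, metastasis 2, TVI metastasis 2 or TVI metastasis 3, 1 without tumor 1, 11 without tumor 2, 3 without metastasis 3 and 18 without TVI metastasis 1, although 11766 sites had an unadjusted p under 0.05 with all samples.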

How the data were processed

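DNA methylation had been measured by bisulfite sequencing in 8 samples. The authors deposited 1 table of beta values, the fraction of methylated calls at each position from 0 to 1, per the file headers; the tools Bismark and Trimmomatic and the build mm10 are listed, without role or order, in the submitters' processing notes. No read counts came with the fractions, so depth is unknown and no counting interval is given. Fractions were converted to percent.

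Sites, regions (neighbouring sites at most 500 bp apart, at least 3 sites) and gene starts were tested with limma 3.58.1 in R 4.3.3: 1 mean per group over all 8 samples, so the TVI samples share the estimate of the spread, a variance trend, two-sided tests, Benjamini-Hochberg adjustment and a threshold of 0.05. The code was checked on simulated data. Per-sample values had exact permutation tests.

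Deposited positions do not follow GRCm38: only 40 of the 413 windows below kept the position listed for GRCm38.p6, within 1 base. Positions were not converted between builds in general. The second pass below did shift the listed position of a start by the offset of an adjacent match, and kept it only where its CpGs matched. A gene start was used only where its 300-base RefSeq sequence matched the deposited sites by the spacing of its CpGs, every site in the window being a CpG of the sequence. A first pass needed 5 CpGs and either 70% of all CpGs or another match within 10000000 bp at the same spacing within 1 base (328 windows of 20328 searched); a second pass needed 3 CpGs at the spacing of an adjacent match (85 windows). Mirrored sequences gave 2 and 0. These made 355 genes. No annotation of the deposited build was used, so the promoter test set out in the design was not run as such; the test at matched starts, its alternatives, the matching limits and the 5 kb limit for regions near a start were added after the data were seen. Genes without a matched start were not tested as genes, although any of their sites stayed in the data. Exons, introns and islands were not analysed here.

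The members and lists were chosen with earlier results of these data known. Named regions were the 15 largest called rises and all 10 called falls with the groups apart, with every locus of at least 3 called regions; named sites were the 10 largest rises and all 5 falls; all 11 called starts are given. The called regions within 5 kb of a start that are described were chosen after their values were seen. The printed sequences and the loci drawn were also chosen after their values were seen. Alternatives were the 5 MFP samples alone, a logit scale, quantile normalization, centring, no variance trend, the replicate number as a block, each sample left out, other limits for joining sites, and the median of sites.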

Additional observations from a re-analysis of the deposited data

Results flagged for a closer look

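The changes from the tumors to the MFP metastases and to the TVI metastases differed at the items below. The difference was tested directly as TVI minus MFP metastases with limma (adjusted p under 0.05 over all features of a kind), and all values are TVI minus MFP metastases in percentage points. The tumors cancel out of this difference, and the label and anything else that set the MFP and TVI samples apart cannot be told apart in it. The items were picked by the MFP metastases against the tumors, and the same MFP values enter here. That choice favors lower TVI values at rises and higher ones at falls. The difference passed at 104 of the 152 called rises and 9 of the 10 called falls. The share passing over all features is not given here.

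Among the named regions without a matched start within 5 kb, TVI metastases were higher by 2.77 at chr15:85388224-85389961, 11.4 at chr11:8597230-8597723, 3.88 at chr2:173082053-173088739, 21.0 at chr2:27629557-27631958, 15.4 at chr19:12566328-12566979, 10.95 at chr11:104433410-104435114, 14.0 at chr4:3703109-3706045, 17.7 at chr9:20902308-20903126, 8.84 at chr19:3339070-3341836, 6.87 at chr1:93842039-93843429, 9.55 at chr19:55939773-55941338, 1.16 at chr2:157267665-157268586 and 1.18 at chr19:4477394-4478138. They differed by -23.9 at chr18:75538929-75539188 and -19.4 at chr15:77646086-77648323. Among called regions within 5 kb of a matched start, named here by that start, TVI metastases were higher by 41.7 at Syt8, 8.13 at Cldn14, 3.05 at Gm26511, 5.31 at Jup, 4.95 at Adcy7, 2.52 at Cldn4, 14.3 at Ezr, 3.90 at Plcg2, 3.63 at Gm52708, 4.36 at Slc26a8, 12.6 at Aebp1, 1.86 at Dgkz, 12.98 at Gm38485, 1.34 at Ptpa, 3.54 at Arhgef2, 11.6 at Col18a1, 1.60 at Itpr3os, 4.81 at Nfkbia and 3.57 at Tyk2. They differed by -3.99 at Smarcd2, -4.15 at Cdk6, -14.8 at Col18a1, -4.64 at Gm15270, -3.45 at Bcar1, -4.64 at Rara and -3.03 at Bax.

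Among the 11 called starts, the TVI metastases differed by -15.3 at Lrrc26, -2.54 at Gm16059 and -6.72 at Gm15270, and were higher by 3.94 at Gm52708, 3.03 at Slc26a8, 2.22 at Pygo2 and 1.10 at Cdc42ep1. Among the named sites, they differed by -38.8 at chr11:78896867, -43.9 at chr5:145881796, -22.7 at chr5:125617488, -18.9 at chr3:97902928 and -24.4 at chr8:124956520, and were higher by 11.4 at chr2:173102912, 24.1 at chr5:136387507, 10.7 at chr19:46530381 and 11.02 at chr19:46530257.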

How the results depend on the processing

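The difference in mean methylation (0.731) was 0.573 to 0.888 leaving out samples or sites or averaging over regions. That in the share of sites from 20% to 80% (-0.816) was -1.08 to -0.552 leaving out 1 sample, -1.03 over regions and -0.301 for sites from 35% to 65%. No rescaling was run for either. The median site difference was 0.392 as deposited, -0.0265 with quantile normalization and -0.341 with centring. Regions with a higher mean went from 76.5% to 44.9% and 40.8%. Both scalings even out a general shift by design, so they cannot show whether one is present. The 162 called regions became 87 with the 5 MFP samples only, 72 with quantile normalization, 84 with centring, 35 with the median of sites and 56 to 171 leaving out 1 sample. The 63 called sites became 0 with the 5 MFP samples only, 0 on the logit scale, 28 with quantile normalization, 22 with centring, 155 without the variance trend, 220 among sites with a mean from 5% to 95% and 0 to 18 leaving out 1 sample. The 11 called starts became 0 with quantile normalization, 27 with centring, 1 in the window of 250 bp before to 50 bp after and 0 to 14 leaving out 1 sample. The cause was not tested. With the median of sites, chr19:3339070-3341836 turned to 0.893, Mef2d to 1.28, chr19:4477394-4478138 to 0.330 and Jag1 to -0.140, and in the shorter window, with 16 sites, Gm16059 turned to -0.146. Of 58 named regions, 10 were called under every alternative run, and 0 of 15 sites and 0 of 11 starts were (limma). With the replicate block, 65 regions, 0 sites and 0 starts were called; same-numbered tumors and metastases had correlations of deviations of 0.00513 and -0.0319, so the numbers are not shown to pair the samples. Depth is unknown, so the counting error of single sites could not be given.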
